A study of Mus musculus with 8 samples.

Results

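Coenzyme Q (ubiquinone) is a lipid that carries electrons in the inner mitochondrial membrane, and the genes described here encode the enzymes and proteins that make or hold it. The members were taken by gene symbol from the platform annotation: Pdss1, Pdss2, Coq2, Coq3, Coq4, Coq5, Coq6, Coq7, Coq9 and Coq10b. Of these 10 genes, 9 were measured, each by 1 probe set, among 19505 genes and 22206 tested probe sets. Pdss1 had no probe set under its name in the annotation used and was not analysed here.

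The arrays hold RNA of type 1 conventional dendritic cells (cDC1), a subset known for presenting antigen to CD8 T cells, sorted from spleens of naive wild-type C57BL/6 mice. One group of 4 arrays is the TMRM/MG-high fraction and the other group of 4 the TMRM/MG-low fraction, with no treatment or genetic change named for either. TMRM is a dye that accumulates in mitochondria with their membrane potential, and the labels do not spell out MG. The labels do not say whether an array stands for 1 mouse or a pool, so a p-value here reflects the spread among these arrays and that spread may be technical.

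The coenzyme Q molecule has a ring, which enters the pathway as a hydroxybenzoate, and a long isoprenoid tail built from products of the mevalonate pathway. PDSS1 and PDSS2 form the enzyme that builds the tail, COQ2 joins it to the ring, and COQ3 to COQ7 with COQ9 act on the ring in a complex on the inner membrane. The finished molecule takes electrons from complex I, complex II and several other dehydrogenases and hands them to complex III, whose work helps build the potential that TMRM follows.

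In the TMRM/MG-high fraction Coq7 and Coq10b were higher, and the other 7 measured genes did not pass the test. COQ7 is the hydroxylase of the last hydroxylation of the ring, and COQ10B is a lipid-binding protein thought to carry coenzyme Q to where it works. Coq7 was 1.59-fold higher (95% interval 1.34 to 1.89) and Coq10b 1.42-fold higher (1.25 to 1.61), with 4 arrays in each group. So 2 of 9 members rose and 0 fell by limma at an adjusted p of 0.05, where 5.28% of all tested probe sets were called higher and 2.96% lower. At an unadjusted p under 0.05 the member counts were 3 and 0, where 15.3% of all tested probe sets were higher and 10.1% lower. Over all probe sets the calls were 1173 higher and 658 lower, and 852 and 858 after quantile normalization of the tested probe sets.

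The promoter windows of Coq7 and Coq10b are shown because these are the genes that rose. They come from RefSeq (GRCm38.p6) and give the 250 bases before the annotated start, 5′ to 3′ on the gene's strand. Capitals mark a match to 1 of 4 searched motifs. Coq7 lies on the minus strand (chr7:118533357-118533606) and Coq10b on the plus strand (chr1:55052520-55052769).
Coq7: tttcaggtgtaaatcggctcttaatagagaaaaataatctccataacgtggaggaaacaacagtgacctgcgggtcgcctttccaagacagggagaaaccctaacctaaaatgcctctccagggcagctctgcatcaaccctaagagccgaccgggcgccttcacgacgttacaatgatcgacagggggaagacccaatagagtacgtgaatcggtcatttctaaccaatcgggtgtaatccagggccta
Coq10b: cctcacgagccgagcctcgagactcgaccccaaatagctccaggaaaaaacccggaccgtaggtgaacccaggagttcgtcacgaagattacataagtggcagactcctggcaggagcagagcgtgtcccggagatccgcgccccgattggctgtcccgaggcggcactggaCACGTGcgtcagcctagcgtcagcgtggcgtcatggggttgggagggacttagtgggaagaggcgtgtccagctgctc

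Windows of 300 bases, which include the first 50 bases after the start, were found for 8 of the 9 measured genes (9 windows, since Coq3 has a pair), and none was listed for Coq5. Both strands were searched for an NRF1 motif (GCATGCGC), an ETS motif of the GABP kind (CCGGAAGT), a YY1 motif (AAGATGGC) and an E-box (CACGTG), and no match overlapped another. Coq10b held an E-box that begins 78 bases before the start, as did Coq4 at 56 bases, where 7.15% of all 32851 windows hold one. Coq2 held the NRF1 motif 49 bases before the start (2.71% of windows) and Coq9 the YY1 motif from base 7 after it (2.75%). None of the 8 genes held the ETS motif (3.89%), and Coq7 held none of the 4. These matches describe letters in a window and not sites in use.

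Cell identity and controls were examined on the same arrays, since every comparison is between the same fractions. All 10 cDC1 markers lay above the median of the negative control probe sets in both fractions, at a mean level per array of 12.0 to 12.2 (high) and 11.9 to 12.2 (low), and limma called 0 of them (2 were higher and 1 lower at an unadjusted p under 0.05). Of 13 plasmacytoid dendritic cell markers 11 rose (12 higher at an unadjusted p under 0.05; 9.95 to 10.4 against 9.23 to 9.41). Of 10 T and NK cell markers 4 fell (9 lower at an unadjusted p under 0.05; 8.60 to 9.11 against 8.92 to 9.83), with a median difference of -0.73 and 0 positive differences. Of 10 cDC2 markers 1 rose and 2 fell (1 and 3 at an unadjusted p under 0.05; 9.28 to 9.84 against 9.32 to 9.74). Of 9 neutrophil and monocyte markers 1, Ly6c1, rose and 1 fell (1 and 3 at an unadjusted p under 0.05; 8.63 to 9.58 against 9.33 to 10.1), with a median difference of -0.68 and 1 positive difference. Limma called 0, and none had an unadjusted p under 0.05, among 7 B cell (9.50 to 9.93 against 9.61 to 9.82), 10 red pulp macrophage (9.59 to 10.3 against 9.64 to 9.98) and 6 erythroid and platelet markers (9.50 to 9.72 against 9.31 to 9.69). For all tested probe sets the shares were 5.28% called higher and 2.96% lower (15.3% and 10.1% at an unadjusted p under 0.05). Every measured marker lay above the negative control median in both fractions. The mean of 4 poly-A spike-in RNAs, which are added to each sample, ranged from 5.99 to 6.96 over the high arrays and from 7.27 to 7.85 over the low ones. The part of the marker shifts in the results was not tested. The spike-in mean did not overlap between the fractions. With it as a covariate limma called 0 probe sets, so every call below was lost there. Values with the covariate are given for some of the genes, in their paragraphs or at the end. In RNA of sorted cells, fewer cells of a type and less RNA per cell cannot be told apart.

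**Figure D1:**
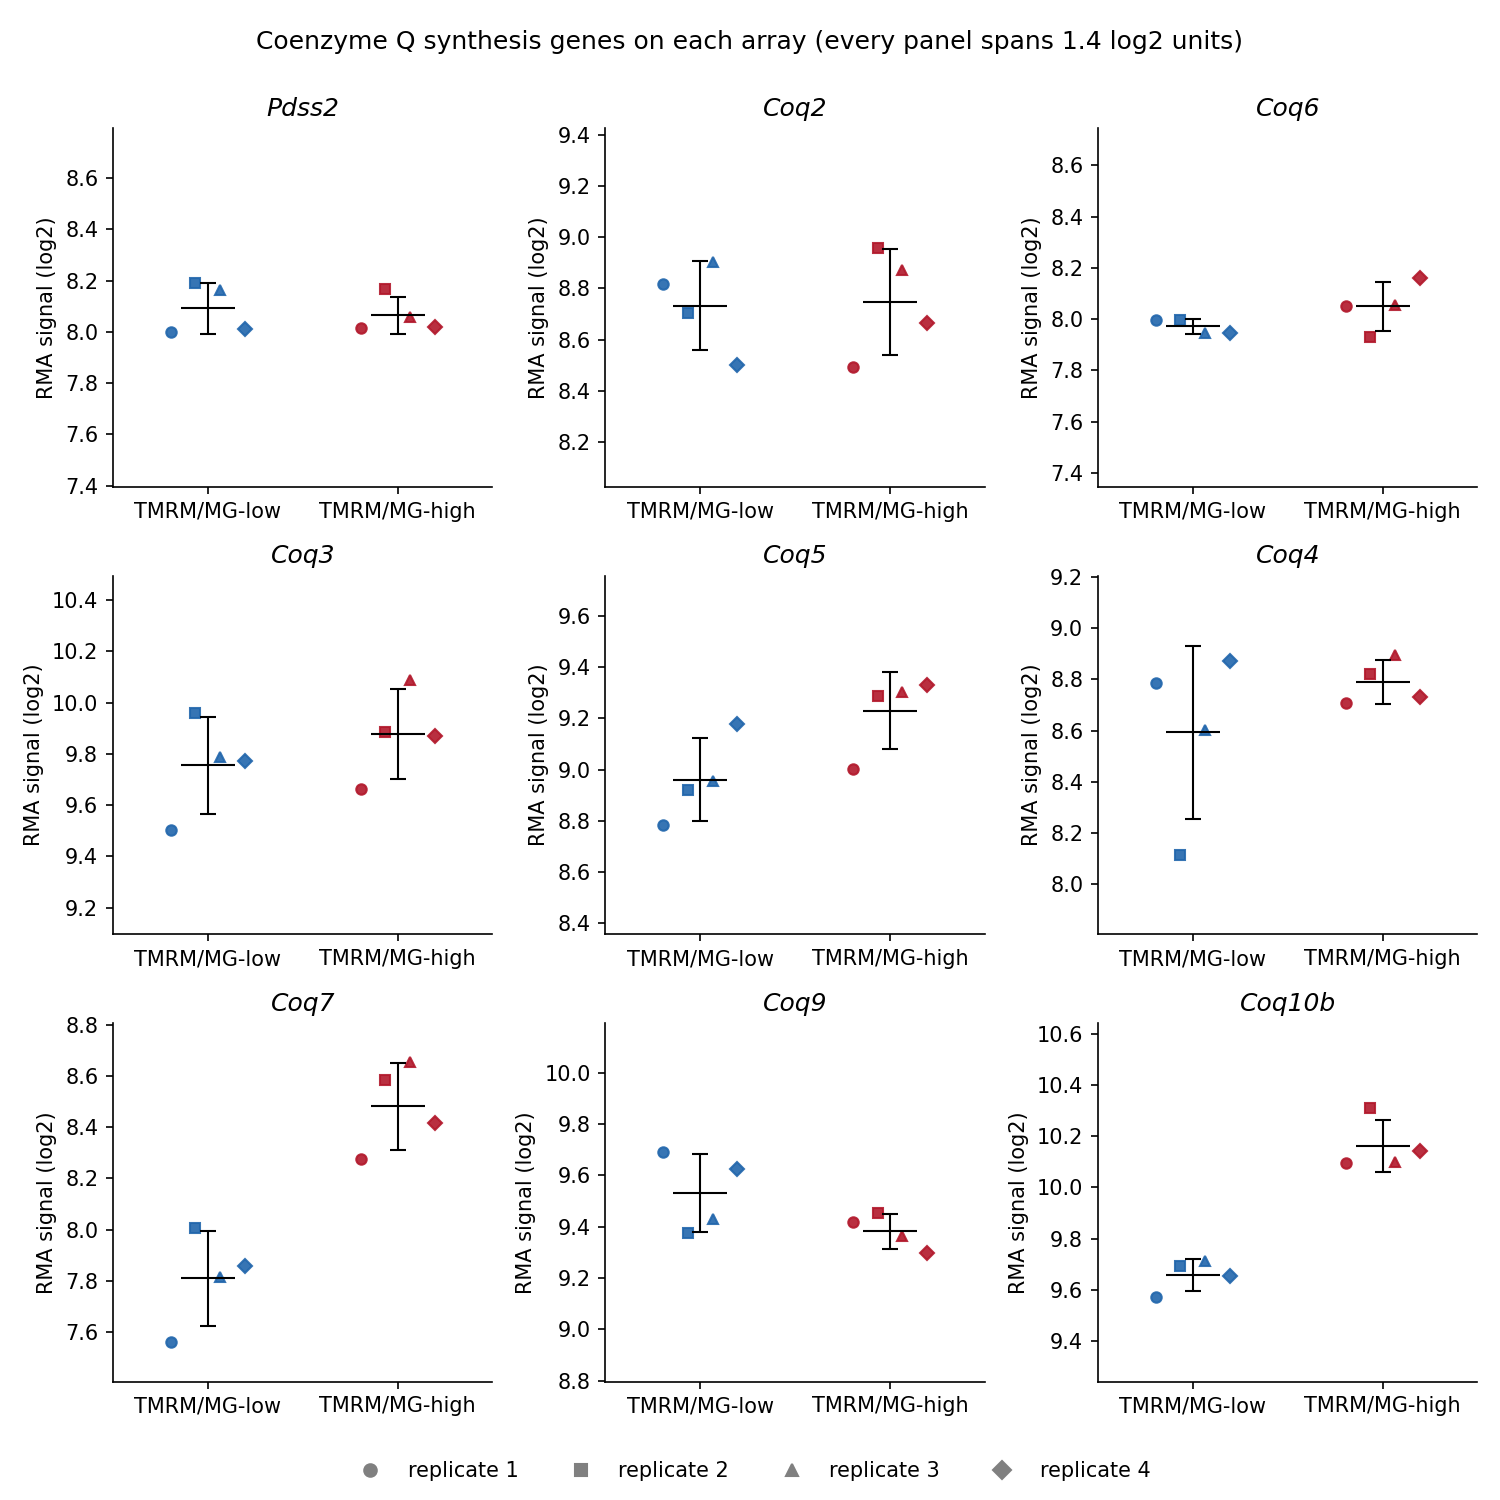
RMA signal (log2) of the 9 measured coenzyme Q genes on each array, with the group mean and SD (4 arrays each) and the replicate number by symbol; every panel has the same span. The high and low arrays are apart for Coq7 and Coq10b and overlap for the other 7 genes.

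The tail is made first. Pdss2, a subunit of the polyprenyl diphosphate synthase, read 8.01, 8.17, 8.06 and 8.02 on the high arrays and 8.001, 8.19, 8.17 and 8.01 on the low arrays (log2 signal, replicates 1 to 4). The high values lay wholly inside the range of the low ones. The log2 difference (high minus low) was -0.028, with a 95% interval of -0.21 to 0.15 (limma adjusted p = 0.872).

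Coq2 encodes the prenyltransferase that joins the tail to the ring. It read 8.49, 8.96, 8.87 and 8.66 on the high and 8.82, 8.70, 8.90 and 8.503 on the low arrays. The groups covered nearly the same range, and the difference was 0.015 (interval -0.25 to 0.28, limma adjusted p = 0.955). Its sign turned after quantile normalization of the tested probe sets (-0.015) and in a fit that held the spike-in mean as a covariate (-0.30), so no direction is given for it.

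The ring is then hydroxylated, methylated and decarboxylated. Coq6, a flavin-dependent hydroxylase, had the tightest low group of the members, at 7.995, 7.9985, 7.95 and 7.95, with 8.05, 7.93, 8.06 and 8.16 on the high arrays. Of the high arrays 3 exceeded every low array and 1 lay below them all. The difference was 0.078 (interval -0.095 to 0.25, limma adjusted p = 0.589).

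Coq3 encodes the methyltransferase that adds methyl groups to ring oxygens. Its signal was 9.66, 9.89, 10.09 and 9.87 on the high and 9.50, 9.96, 9.79 and 9.77 on the low arrays. Only high replicate 3 exceeded all low arrays, and the difference of 0.12 (interval -0.13 to 0.37) was not called (limma adjusted p = 0.556).

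Coq5, the methyltransferase that acts on a ring carbon, came closest to a call among the genes that missed it. It read 9.004, 9.29, 9.30 and 9.33 on the high and 8.79, 8.92, 8.96 and 9.18 on the low arrays. High replicates 2, 3 and 4 exceeded every low array, and high replicate 1 did not. The difference was 0.27 (interval 0.039 to 0.50), with a limma adjusted p = 0.137 and an unadjusted p = 0.0257 (exact permutation p = 0.0571, two-sided).

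Coq4, a protein of the complex that acts at the ring's decarboxylation, had the widest low group. It read 8.71, 8.82, 8.89 and 8.73 on the high and 8.78, 8.11, 8.60 and 8.87 on the low arrays. The SD over 4 arrays was 0.086 for the high and 0.34 for the low group. The difference was 0.20 (interval -0.12 to 0.51, limma adjusted p = 0.428), and it was 0.036 without low replicate 2, the lowest array.

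Coq7 read 8.27, 8.58, 8.65 and 8.42 on the high arrays, with a mean of 8.48 ± 0.17 (SD, n = 4). On the low arrays it read 7.56, 8.01, 7.82 and 7.86, with a mean of 7.81 ± 0.19 (SD, n = 4). All 4 high arrays exceeded all 4 low arrays, as in 9.7% of all tested probe sets (6.37% lay wholly apart in the other direction). The log2 difference was 0.67 (SE 0.11, limma adjusted p = 0.0095), and 113 of the 22206 probe sets differed upward by more. The two-sided exact permutation p was 0.0286, the smallest that 4 against 4 arrays can give.

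Coq9 encodes a lipid-binding protein that binds COQ7 and presents the lipid substrate to it. Unlike its partner it read 9.42, 9.45, 9.37 and 9.30 on the high and 9.69, 9.38, 9.43 and 9.62 on the low arrays. High replicates 3 and 4 lay below all low arrays, and the other high arrays lay among them. The difference was -0.15 (interval -0.35 to 0.054, limma adjusted p = 0.35).

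Coq10b had the smallest p of the members. The high arrays read 10.1, 10.3, 10.1 and 10.1, with a mean of 10.2 ± 0.10 (SD, n = 4). The low arrays read 9.57, 9.69, 9.71 and 9.65, with a mean of 9.66 ± 0.061. The groups did not overlap, as in 9.7% of all tested probe sets in this direction (6.37% in the other). The gap between them was wider than the range within either. The difference was 0.50 (SE 0.083, limma adjusted p = 0.0087), which 2.06% of tested probe sets exceeded. The exact permutation p was 0.0286, again the smallest that 4 against 4 arrays can give.

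**Figure D2:**
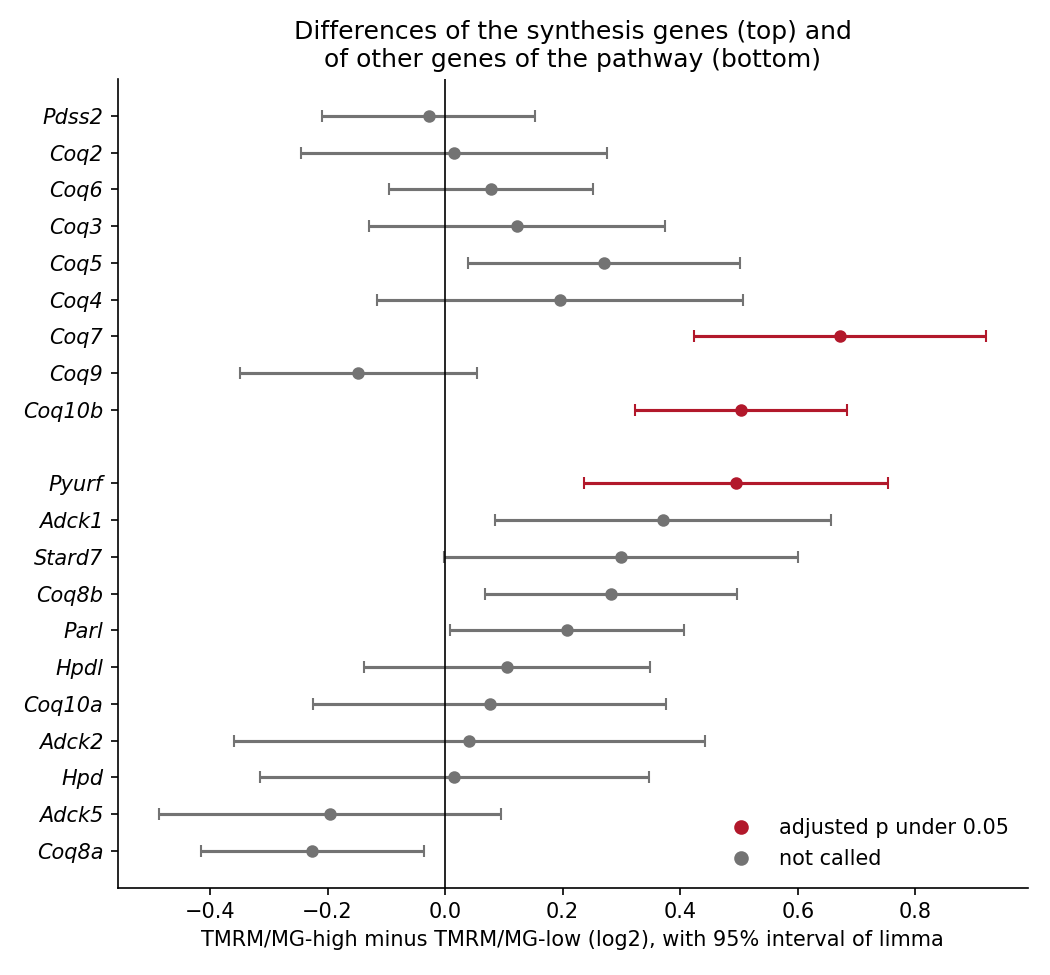
Log2 difference, TMRM/MG-high minus TMRM/MG-low, with the 95% interval of limma, for the 9 synthesis genes in pathway order (top) and 11 other genes of the pathway (bottom). Coq7, Coq10b and Pyurf passed an adjusted p of 0.05, and the intervals of Coq5, Coq8b, Adck1, Parl and Coq8a leave out 0 without a call.

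Across the 9 genes the differences ran from -0.15 for Coq9 to 0.67 for Coq7, with 7 positive and 2 negative. Their median was 0.12, beside 0.0093 over all tested probe sets, of which 52.1% were positive. With the spike-in covariate the median was -0.11, and Coq3 (-0.19), Coq4 (-0.18) and Coq5 (-0.16) were also negative. Their intervals there were -0.72 to 0.33, -0.83 to 0.48 and -0.57 to 0.26, and each holds 0. The calls of Coq7 and Coq10b stood on leaving out any 1 of the 8 arrays, with differences of 0.59 to 0.74 and 0.45 to 0.53 and adjusted p values up to 0.0352 and 0.0318. Both calls ended when the mean of the spike-ins, which separates the fractions on these arrays, entered the fit as a covariate; limma called 0 probe sets there (504 higher and 628 lower at an unadjusted p under 0.05), against 1173 and 658 without it. There Coq7 differed by 0.38 (interval -0.14 to 0.90, adjusted p = 0.985) and Coq10b by 0.42 (interval 0.018 to 0.81, adjusted p = 0.972). Both also ended in a test without moderation and with unequal variances (adjusted p = 0.0913 and 0.0616), which called 11 probe sets higher and 30 lower in all.

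**Figure D3:**
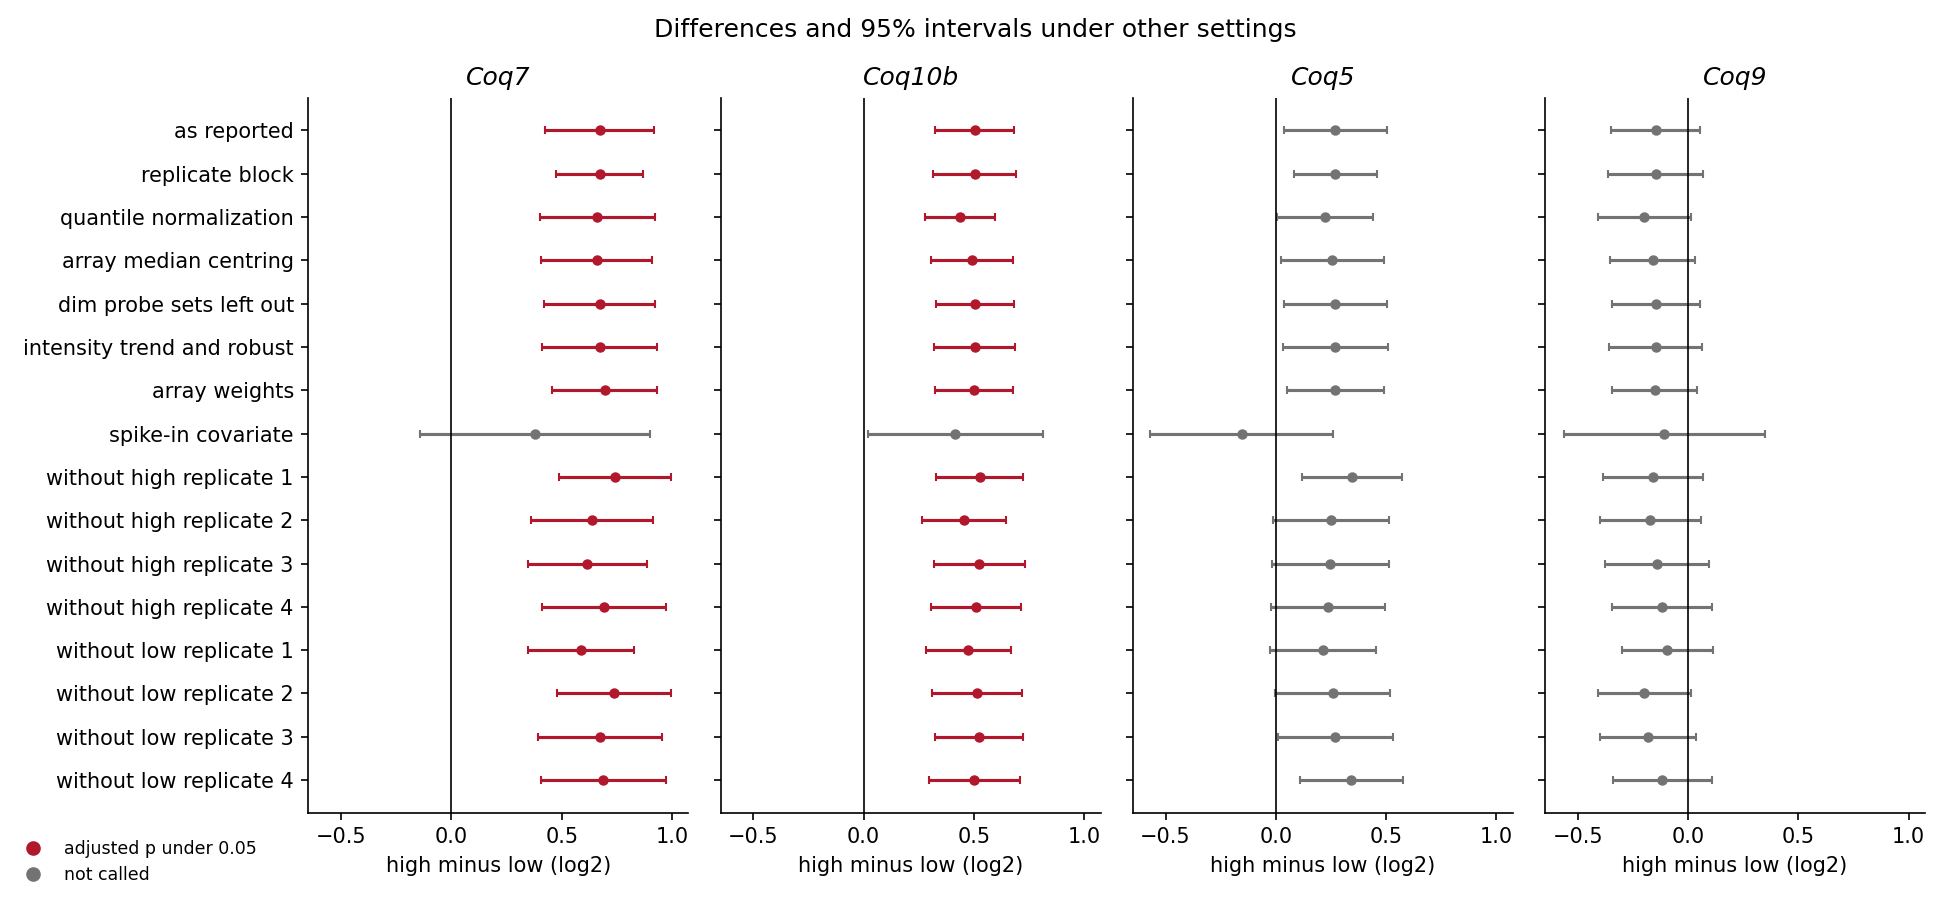
Log2 difference with its 95% interval for Coq7, Coq10b, Coq5 and Coq9 as reported and under other settings of the limma fit. Coq7 and Coq10b were called in each setting drawn except the one with the spike-in covariate, where the intervals widen; Coq5 and Coq9 were called in none.

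The 5 named genes whose array profile lay closest to that of Coq10b, after each gene's own mean over the 8 arrays was taken off, were Sec24d, Pafah1b1, Ndufa9, Vwa5a and Atp2b1. Their root mean square difference from the Coq10b profile was 0.042 to 0.055 on the log2 scale. Their differences between the fractions were 0.45 to 0.52, near that of Coq10b because they were chosen by its profile on these same arrays.

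The other genes of the pathway include the COQ8 proteins, atypical kinase-like proteins of the complex, their relatives and factors that help the enzymes or move the lipid. Of 11 measured, 1 rose and 0 fell by limma (5.28% and 2.96% of all tested probe sets), and the median difference was 0.10. The rise was Pyurf, which encodes a helper of mitochondrial methyltransferases and shares a transcript with Pigy, so its signal may not be its own. Its mean was 10.3 ± 0.12 over the high and 9.82 ± 0.24 over the low arrays (SD, n = 4; difference 0.50, SE 0.12, adjusted p = 0.0288). The call was kept without low replicate 3 or high replicate 1 and lost without any other array (adjusted p up to 0.0874). At an unadjusted p under 0.05 the list had 4 of 11 higher and 1 lower, beside 15.3% and 10.1% of all tested probe sets.

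The COQ8 paralogs lay on opposite sides of 0 and neither was called. With the spike-in covariate, which lies apart between the fractions, the sign of Coq8b turned. Both were then negative, and neither was called there. Coq8b read 9.43, 9.62, 9.54 and 9.50 on the high and 9.04, 9.15, 9.39 and 9.38 on the low arrays, so the groups did not overlap. Its difference was 0.28 (interval 0.068 to 0.50, limma adjusted p = 0.0974). Of all tested probe sets, 9.7% lay wholly apart in this direction and 6.37% in the other. Coq8a read 8.07, 8.15, 7.94 and 8.16 on the high and 8.22, 8.44, 8.27 and 8.29 on the low arrays, again with no overlap but in the other direction. Its difference was -0.23 (interval -0.42 to -0.037, limma adjusted p = 0.13). Coq10a, the paralog of Coq10b, spread from 8.33 to 9.04 in the high and from 8.53 to 8.75 over the low arrays, and its difference was 0.076 (interval -0.22 to 0.38, adjusted p = 0.785).

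Gene pairs of partners or paralogs were compared within each array, so that a shift shared by both genes of an array cancels. The 3 pairs were chosen after their values were seen, so the changes are a description with no test. Coq7 minus Coq9 was -1.14, -0.87, -0.71 and -0.88 on the high and -2.13, -1.37, -1.61 and -1.77 on the low arrays, a change of 0.82. Coq8b minus Coq8a was 1.36, 1.47, 1.60 and 1.34 on the high and 0.82, 0.71, 1.13 and 1.08 on the low arrays, a change of 0.51. In both pairs the fractions did not overlap. For Coq8b minus Coq8a this follows from the single genes, which lay wholly apart in opposite directions. For Coq7 minus Coq9, Coq7 alone already lay wholly apart, while Coq9 overlapped between the fractions. Coq10b minus Coq10a changed by 0.43 and overlapped between the fractions (1.11 to 1.76 against 0.96 to 1.13). With the spike-in covariate the changes were 0.49, 0.11 and 0.84.

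**Figure D4:**
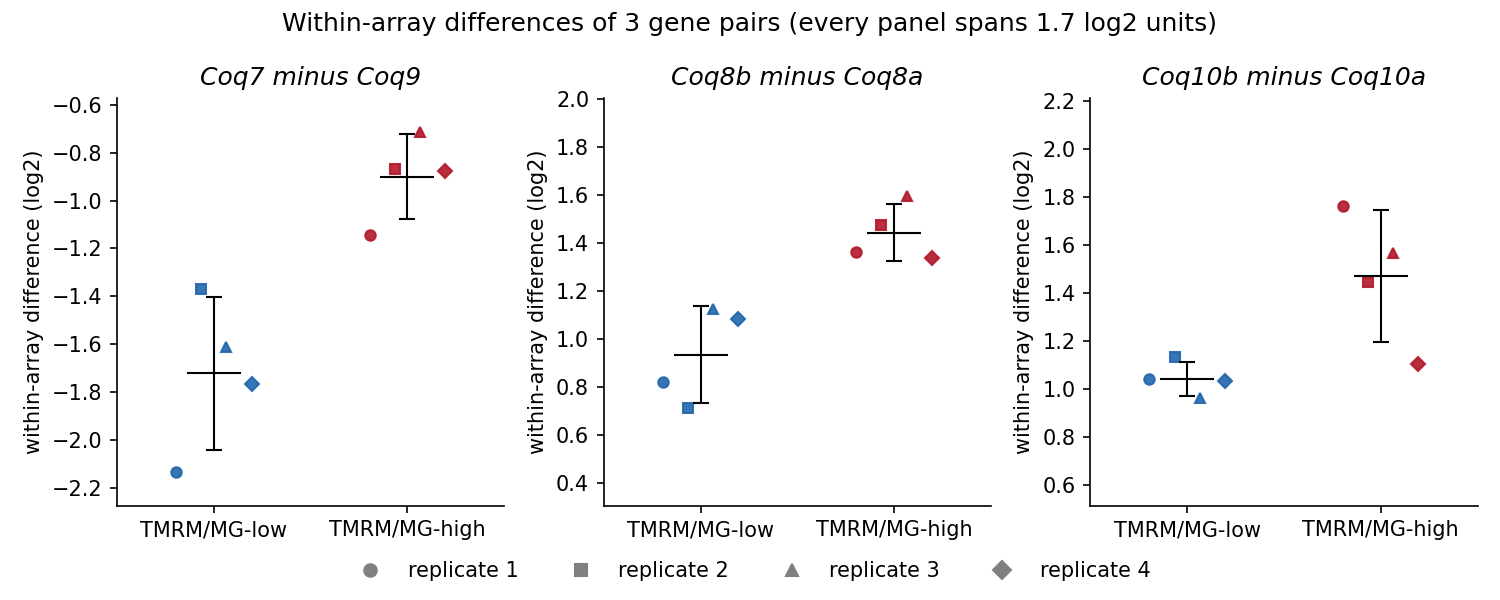
Within-array log2 difference of Coq7 minus Coq9, Coq8b minus Coq8a and Coq10b minus Coq10a on each array, with the group mean and SD (4 arrays each). The high and low arrays do not overlap for the first and second pair and do for the third; the absolute height of a panel has no meaning, since probe sets differ in brightness.

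Of 19 enzyme genes whose products pass electrons to coenzyme Q, 5 rose and 1 fell by limma (5.28% and 2.96% of all tested probe sets). The median difference was 0.25. At an unadjusted p under 0.05 the counts were 10 and 1 (15.3% and 10.1% of all tested probe sets). Etfdh, the oxidoreductase that delivers electrons from fatty acid and amino acid breakdown, read 8.54, 8.91, 8.73 and 8.84 on the high and 8.30, 8.30, 8.13 and 7.75 on the low arrays. Its difference was 0.64 (SE 0.13, adjusted p = 0.017). Etfa, a subunit of the flavoprotein that feeds Etfdh, differed by 0.43 (adjusted p = 0.0338), and Sdhb, the iron-sulfur subunit of complex II, by 0.29 (adjusted p = 0.0414). The fall was in Gpd2, the mitochondrial glycerol phosphate dehydrogenase, which read 10.78, 11.002, 10.77 and 10.83 on the high and 11.5, 11.6, 11.3 and 11.3 on the low arrays. Its difference was -0.58 (SE 0.097, adjusted p = 0.0092), and it kept its call on leaving out each of the 8 arrays. The call of Gpd2 was lost with the spike-in covariate and in the test without moderation. Dhodh, which links pyrimidine synthesis to coenzyme Q, differed by -0.10 (adjusted p = 0.51), Sqor, which oxidises sulfide, by -0.085 (0.703), and Aifm2, which reduces coenzyme Q outside mitochondria, by 0.034 (0.889). None of these passed.

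Complex III takes the electrons from coenzyme Q. Of 10 genes of this complex and its acceptor cytochrome c, 5 rose and 0 fell by limma (5.28% and 2.96% of all tested probe sets). The median difference was 0.34. At an unadjusted p under 0.05 the counts were 7 and 0 (15.3% and 10.1% of all tested probe sets). The called genes include the Rieske subunit Uqcrfs1 (0.48, SE 0.11, adjusted p = 0.0223), Uqcrb (0.40, adjusted p = 0.0304), the core subunit Uqcrc1 (0.35, adjusted p = 0.0374) and Uqcr10 (0.34, adjusted p = 0.0428). All 10 differences were positive, from 0.097 to 0.48, and 9 of the 10 genes had no overlap between the fractions, where 9.7% of all tested probe sets lay apart in that direction.

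The tail draws on the mevalonate pathway, which also feeds cholesterol synthesis. Of 11 genes of this pathway, its branches and its control, 4 rose and 0 fell by limma (5.28% and 2.96% of all tested probe sets). The median difference was 0.25. Not all of them lead to the tail. At an unadjusted p under 0.05 the counts were 6 and 0 (15.3% and 10.1% of all tested probe sets). Pmvk, a kinase of the pathway, differed by 0.61 (SE 0.11, adjusted p = 0.0123) and Fdps, which makes the farnesyl diphosphate from which the tail is extended, by 0.53 (SE 0.099, adjusted p = 0.0126). Nus1, a subunit of the dolichol-making prenyltransferase, differed by 0.49 (adjusted p = 0.0216) and Hmgcs1, an early enzyme, by 0.49 (adjusted p = 0.0348).

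**Figure D5:**
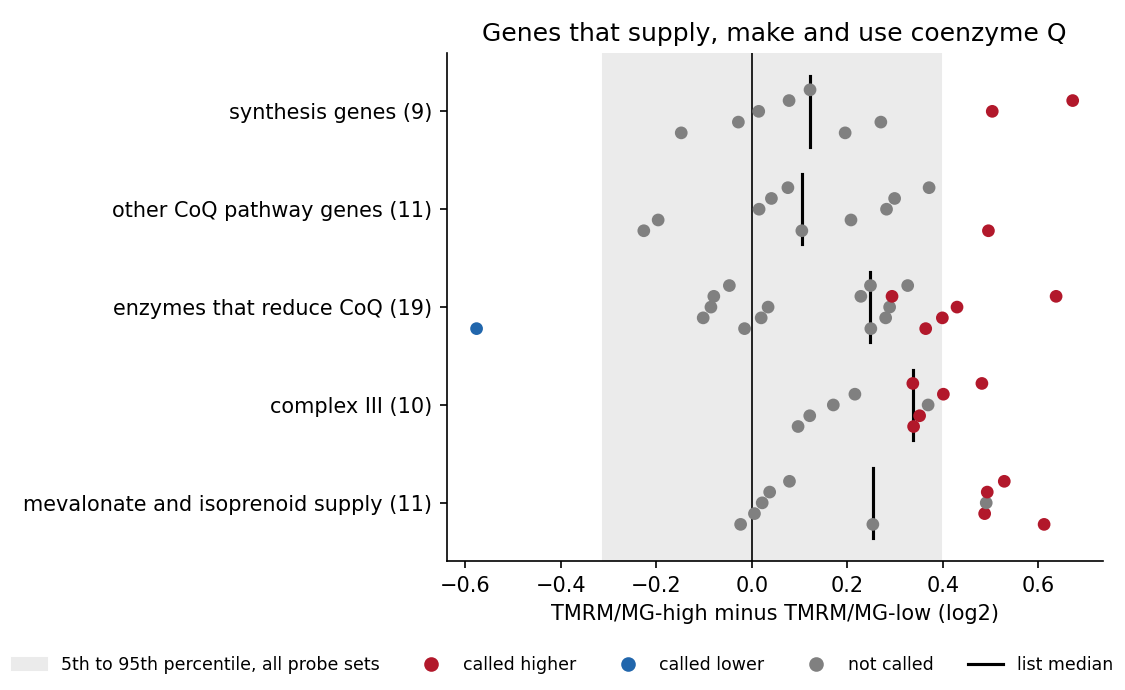
Log2 difference, TMRM/MG-high minus TMRM/MG-low, of each measured gene in the synthesis list and 4 related lists, with the list median as a black line and the 5th to 95th percentile of all probe sets in grey. Called higher were 2 of 9 synthesis genes and 1 of 11, 5 of 19, 5 of 10 and 4 of 11 genes in the lists below. Of the 19 enzymes that reduce coenzyme Q, 1 was called lower. Of all tested probe sets 5.28% were called higher and 2.96% lower.

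Over the 4 related lists together, 15 of 51 genes rose and 1 fell by limma. Of all tested probe sets, 5.28% were called higher and 2.96% lower. The count of rises moved with the arrays used. The rises numbered 4 without low replicate 1, 4 without low replicate 2, 3 without low replicate 4, 2 without high replicate 2, 2 without high replicate 3 and 5 without high replicate 4, against 18 without low replicate 3 and 16 without high replicate 1. Of the 13 called genes named in these lists, Gpd2, Pmvk and Fdps kept their call in all 8 omissions. Etfdh lost it without high replicate 2 or 3, and Nus1 without low replicate 1 or 4 or high replicate 2 or 3. Uqcrfs1 kept it without low replicate 3, high replicate 1 or high replicate 4 and lost it otherwise. Hmgcs1 kept it without low replicate 1 or high replicate 1, Sdhb without low replicate 3, and Etfa, Uqcrb, Uqcrc1 and Uqcr10 without low replicate 3 or high replicate 1, and each lost it in the other omissions. The rises numbered 8 after quantile normalization of the tested probe sets and 0 with the spike-in covariate, where 0 of these genes were higher and 1 was lower at an unadjusted p under 0.05. In the test without moderation they also numbered 0. The fall of Gpd2 was lost in that test and with the covariate. No test compared these lists with the synthesis genes.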

How the data were processed

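The values are the deposited log2 signals of 8 Affymetrix arrays. Per the submitters' processing notes, the authors made them with RMA in Affymetrix Expression Console 1.1, which corrects background, equalises the arrays and summarises probe sets. The build of the array annotation: not given in the sources used here. A shift shared by most transcripts is thus removed. Of 28846 rows, 6640 control probe sets were left out, and 22206 were tested. Genes with several probe sets took the one of highest mean. The fractions were compared, TMRM/MG-high minus TMRM/MG-low, with limma 3.58.1 (lmFit, eBayes, no block, two-sided) in R 4.3.3, with Benjamini-Hochberg adjustment over all tested probe sets, and single values by exact permutation tests. Intervals are limma's 95% intervals. Precision is limited by the number of arrays. The fit was tested on simulated data.

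Members, gene lists, motifs and alternatives were chosen with earlier results of these data known. Named genes were all members, up to 4 called genes of each related list by smallest p, Coq8a, Coq8b, Coq10a, Fdps, Etfdh, Dhodh, Sqor, Gpd2 and Aifm2 whatever their p (1 more is not reported here), and the 5 profiles nearest to Coq10b; Chdh, Ndufs3, Adck1, Parl and markers appear only in figures or counts. Alternatives were a replicate block, another quantile normalization (tested probe sets only), median centring, a filter on dim probe sets, eBayes with trend and robust settings, array weights, the mean of 4 poly-A spike-ins as a covariate, unmoderated unequal variances, gene means of probe sets, a threshold of 0.1 and leaving out each array.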

Additional observations from a re-analysis of the deposited data

Results flagged for a closer look

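Among 56 groups of 4 arrays (9 members and 19 named related genes, each in both fractions), 3 held an array far from the other 3, and chance alone gives such a gap in about 1 group in 20. Coq5 read 9.004 in high replicate 1, below the other high arrays at 9.29 to 9.33, and that array was the only high one to overlap the low group. Uqcr10 read 12.2 in the same high replicate 1, with the other high arrays at 12.4. Sdhb read 11.5 in low replicate 3, above the other low arrays at 11.3 to 11.4.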

How the results depend on the processing

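The counts of 2 members higher and 0 lower held under the replicate block, quantile normalization, median centring, the dim filter, the trend with a robust fit, array weights, gene means, the threshold of 0.1 and each of the 8 omissions. Members called higher fell to 0 with the spike-in covariate and with unmoderated unequal variances. The members' median difference of 0.12 was 0.076 to 0.19 across omissions (0.19 without high replicate 1) and reversed to -0.11 with the spike-in covariate. That covariate also reversed Coq2 (-0.30), Coq3 (-0.19), Coq4 (-0.18), Coq5 (-0.16), Coq10a (-0.42), Coq8b (-0.034), Dhodh (0.13) and Sqor (0.013), and moved the pairs to 0.49 (Coq7 minus Coq9), 0.11 (Coq8b minus Coq8a) and 0.84 (Coq10b minus Coq10a); the cause was not tested. None of the single genes was called in that fit, whose covariate lies apart between the fractions. Quantile normalization reversed Coq2 (-0.015). Omissions turned the sign of Coq2 (-0.062 to 0.099), Pdss2 (-0.062 to 0.0047), Aifm2 (-0.060 to 0.11) and Coq10a (-0.040 to 0.20), none called. Related genes called higher numbered 15, and 8 after quantile normalization, 0 with the covariate, 0 unmoderated and 2 to 18 across omissions; the 1 called lower became 0 with the covariate and 0 unmoderated. Over all probe sets 1173 were higher and 658 lower, against 1950 higher with the trend, 0 and 0 with the covariate (504 and 628 at an unadjusted p under 0.05), 11 and 30 unmoderated, 852 and 858 after quantile normalization, 933 and 698 after centring, and 183 to 1680 and 218 to 793 across omissions; omissions also leave fewer arrays.

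With the replicate block 2 members were higher, and 1225 probe sets higher and 650 lower. No label says what the replicate numbers mark, so they were not taken as pairs. Over all tested probe sets, same-numbered arrays shared deviations at r = 0.0152 to 0.271, with 1 of 4 pairs above 0.1. By the same measure 3 of 8 arrays correlated best with their own number. Some markers, such as Itgae, followed the same order of replicates in both fractions, and others did not. These values do not settle whether the numbers mark pairs. The calls of Sdhb and Uqcrc1 were lost under the block (adjusted p = 0.0693 and 0.0533).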
